A study of Mus musculus with 16 samples.

Results

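B2_Mm2 is one of the subfamilies of the mouse B2 repeat, a short interspersed element (SINE) present in very many near-identical copies in the genome. B2 elements do not encode a protein. They derive from a tRNA, carry an internal promoter for RNA polymerase III and can be transcribed on their own from it, and copies that lie in introns or untranslated regions are also read as part of the host gene's RNA by RNA polymerase II. B2 RNA made by RNA polymerase III is known to increase after heat shock and other stresses in mouse cells. The element is named for its sequence family, so single copies are told apart only by their position and by the bases in which they differ.

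The study crushed one sciatic nerve of each mouse and took lumbar L4 to L6 dorsal root ganglia, which hold the cell bodies of the sensory neurons whose axons run in that nerve. Injured and naive ganglia were dissociated, with Percoll named in the sample descriptions, and total RNA was sequenced at 24 h and at 72 h after the crush. Each of the 4 groups (injured 24 h, naive 24 h, injured 72 h and naive 72 h) has 4 libraries, and the series text counts 4 mice per time as the replicates. No strain, sex, age or genotype is given in the labels, and naive ganglia came from the same animals as injured ones, so they are not ganglia of uninjured mice. B2_Mm2 windows are the rows of the deposited window table whose annotation begins with that subfamily's name: 23435 of 205758 short genomic windows, or 11.39%. Column names of the later time point state no time, and they were taken as 72 h because the 24 h columns do.

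Of the 23435 windows, 22003 were 24 bp long and the longest was 96 bp, so a window covers a stretch of a copy and not the copy itself. By GENCODE M21 (GRCm38), 13213 windows (56.38%) lay in introns, 9620 (41.05%) outside genes and 602 (2.569%) in exons, of which 517 were in exons of non-coding transcripts and 77 in 3' UTRs. The window's own name also said B2 for 22992 windows, and for the other 443 it gave another family, in 411 cases a simple repeat. A further 2831 windows named B2 are placed by the file in a gene part or between genes with no subfamily, and they are not members. In all, 8064 windows (34.41%) had at least 1 count in at least 1 of the 16 libraries and 15371 had 0 counts in every library. B2_Mm2 counts ranged from 4332 to 21798 per library, against 32758978 to 56484541 counts in the gene table. All levels below are in CPM, counts scaled to the depth of each library in the gene table.

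The windows share a short piece of the element. Sequences could be read for 604 windows, from GENCODE M21 transcripts for 572 and from RefSeq promoters of GRCm38.p6 for 32. They are therefore the windows in transcripts or at gene starts, and no sequence was available for the intron and intergenic windows in which most of the change after injury was counted. The first 4 lines below, in 5′ to 3′ order, are the exon windows with the highest level and the exon windows that rose, and the last is a sequence that several copies share. The run ACAGTGTACT, the most common stretch of 10 bases in the B2_Mm2 windows with a sequence, is in capitals. Each line shows the strand that holds the run, and the Hip1 window, which does not hold it, is shown on the plus strand of the chromosome. Positions are given where each window is described.
Emc7 3' UTR window: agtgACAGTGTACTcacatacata
Hspa4l 3' UTR window: tctgagacagccACAGTGTACTca
Lockd exon window: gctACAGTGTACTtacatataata
Hip1 exon window: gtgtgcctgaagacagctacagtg
Most common sequence among B2_Mm2 windows: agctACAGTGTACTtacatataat

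The lines read as one stretch of the element cut at different offsets. ACAGTGTACT occurred on either strand in 167 of the 566 windows of 24 bp with a sequence (29.51%), starting at positions 1 to 15 of the window with a median of 6. Allowing 2 mismatches, 302 of 566 (53.36%) held it. The exact run was found in 46.89% of 514 windows of B2_Mm1a and B2_Mm1t, the other main B2 subfamilies, and in 0 of 268 windows of B3 and B3A, the related older subfamilies, and 0 of 1213 windows of B1, an unrelated SINE that derives from 7SL RNA. Over all 5026 repeat windows of 24 bp with a sequence, most of them not B2, 8.118% held the run. AATAAA, the polyadenylation signal, searched on both strands, occurred in 21.73% of B2_Mm2 windows and in 17.79% of all repeat windows. The run lay on the strand of the host gene in 77 windows and on the opposite strand in 83. Of the 566 windows, 67 had all 24 bases in common with another repeat window whose sequence could be read. The sequence found most often among the B2_Mm2 windows is held by 5 of them and by 15 repeat windows with a sequence in all. These are lower bounds, because most windows of the table had no sequence. Reads of copies that are alike cannot be placed by sequence alone, and the rule the authors used for reads that match several places is not given in the sources used here. The counts of single windows are therefore uncertain, and so is the sum where copies of other subfamilies hold the same bases.

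The first comparison asks whether the subfamily as a whole was more abundant in injured ganglia. Summed over all 23435 windows, B2_Mm2 was at 157.9, 198.5, 180.2 and 374.8 CPM in the 4 injured libraries at 24 h and at 121.4, 126.3, 104.3 and 131.9 CPM in the naive ones. Every injured library was above every naive one, and injured replicate 4 stood far above the other injured libraries. At 72 h the injured libraries were at 346.6, 446.8, 306.2 and 390.2 CPM and the naive ones at 116.5, 134.9, 172.4 and 168.7 CPM, again with no overlap and with no injured library apart from the rest. The means were 228 ± 99.4 against 121 ± 11.9 CPM at 24 h and 372 ± 60.3 against 148 ± 27.0 CPM at 72 h (SD, n = 4 libraries each), ratios of 1.88 and 2.51. An exact 2-sided permutation test gave p = 0.0286 at each time, the smallest that 4 against 4 libraries allow.

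**Figure D1:**
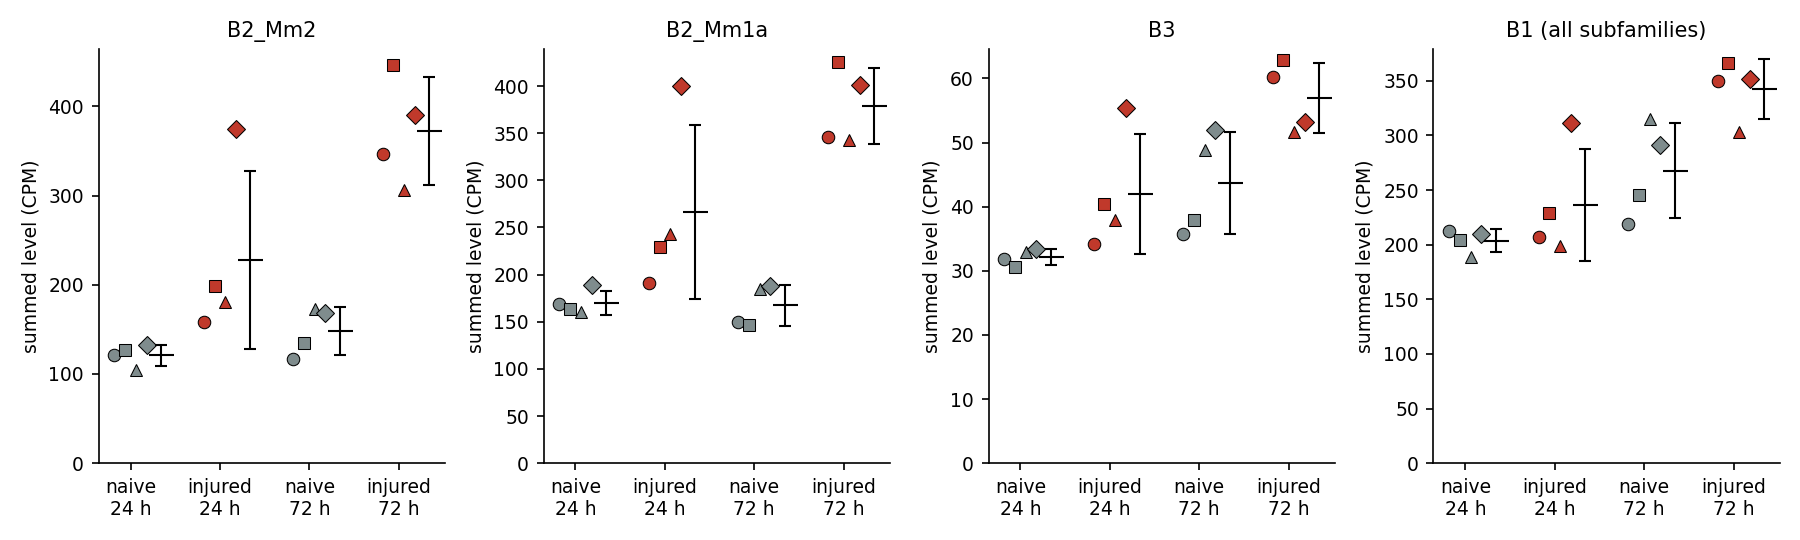
Summed level in CPM (y axis, from 0) of all windows of B2_Mm2, B2_Mm1a, B3 and B1 in the 4 groups. Each point is a library, with circles, squares, triangles and diamonds for replicates 1 to 4, and the bar beside the points gives the mean and SD of the 4 libraries. B2_Mm2 and B2_Mm1a are higher in every injured library than in every naive one at each time. B3 is so at 24 h only, and B1 overlaps between groups at each time.

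In the fit over all repeat subfamilies, B2_Mm2 rose at both times. edgeR's quasi-likelihood test gave a log2 difference of 0.91 at 24 h (SE 0.222, Benjamini-Hochberg adjusted p = 0.032) and 1.33 at 72 h (SE 0.224, adjusted p = 0.000421). Of 344 subfamilies tested, 1.74% rose and 0.291% fell at 24 h, and 2.33% rose and 2.03% fell at 72 h, and by p B2_Mm2 ranked 4 and 5 among them. The difference between the responses, 72 h minus 24 h, was 0.42 (SE 0.312, adjusted p = 0.789), so a larger response at 72 h was not shown. The call at 24 h depended on single libraries. Without injured replicate 4 the log2 fold change was 0.56 (adjusted p = 0.144), and without naive replicate 1, 2, 3 or 4 it was 0.91, 0.93, 0.85 or 0.96 (adjusted p = 0.0946, 0.058, 0.122 and 0.0578). At 72 h the fold change stayed between 1.23 and 1.41 and past the threshold with any of the 8 libraries left out.

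The closest relatives moved with B2_Mm2, and the other SINEs moved less. B2_Mm1t rose at both times, by log2 fold changes of 0.83 (SE 0.211, adjusted p = 0.0354) and 1.45 (SE 0.214, adjusted p = 0.000295). B2_Mm1a rose at 72 h by 1.18 (SE 0.191, adjusted p = 0.000299) and was at 0.64 at 24 h (adjusted p = 0.111). B3 was at 0.38 and 0.39 (edgeR, adjusted p = 0.353 and 0.237) and B3A at 0.51 and 0.46 (adjusted p = 0.111 and 0.103). The largest B1 subfamily by level, B1_Mus1, was at 0.24 and 0.49 (adjusted p = 0.568 and 0.112), and none of these passed the threshold. As sums, B3 and B3A were higher in every injured library than in every naive one at 24 h, with ratios of 1.30 and 1.42 (exact permutation p = 0.0286 each). At 72 h both overlapped between the groups (exact permutation p = 0.0571 each). The differences from B2_Mm2 were tested on log2 ratios within each library, with exact 2-sided permutation tests adjusted over 6 tests. B2_Mm2 relative to B3 and B3A was 0.44 higher in injured libraries at 24 h and 0.92 higher at 72 h, and relative to B1 it was 0.64 and 0.97 higher (log2, each exact p = 0.0286, adjusted p = 0.0429, no overlap). Relative to B2_Mm1a and B2_Mm1t it was 0.18 higher at 24 h (exact p = 0.0571, adjusted p = 0.0685) and 0.05 higher at 72 h (p = 0.457 with and without adjustment), so no difference from these subfamilies passed the test.

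The increase passed the test in introns and outside genes, and not in exons. In introns, B2_Mm2 windows summed to 118 ± 55.0 CPM in injured and 59.9 ± 7.25 CPM in naive libraries at 24 h, and to 202 ± 39.0 and 84.0 ± 19.6 CPM at 72 h. Outside genes the sums were 92.0 ± 41.8 and 44.4 ± 5.21 CPM at 24 h, and 147 ± 18.5 and 46.4 ± 7.95 CPM at 72 h. For both locations and times the groups did not overlap (exact permutation p = 0.0286 each, SD, n = 4). In exons the sums were 17.7 ± 2.91 and 16.7 ± 0.436 CPM at 24 h (exact permutation p = 0.6) and 23.1 ± 3.86 and 17.8 ± 0.505 CPM at 72 h (p = 0.0571), with overlap at both times. The fold outside genes at 72 h was 3.17, against 2.41 in introns and 1.30 in exons; these ratios were not tested against each other.

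**Figure D2:**
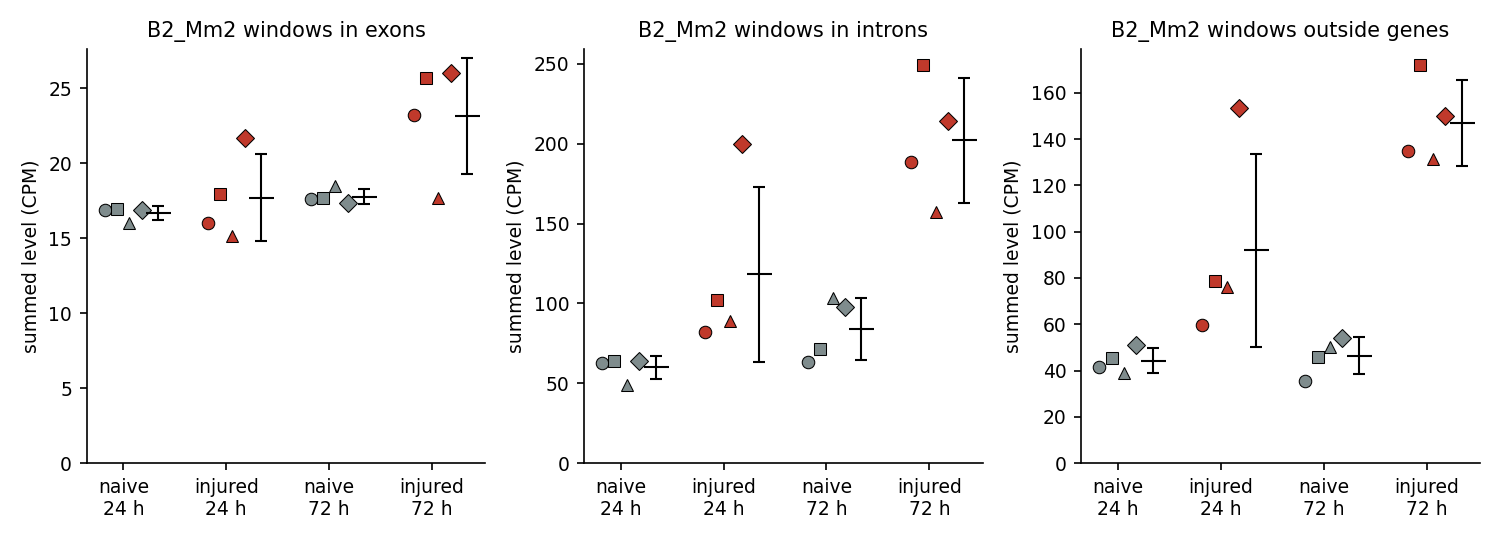
Summed level in CPM (y axis, from 0, each panel on its own scale) of B2_Mm2 windows in exons, in introns and outside genes. Points are libraries, with circles, squares, triangles and diamonds for replicates 1 to 4, and bars give the mean and SD of 4 libraries. Injured and naive libraries are apart in the intron and outside panels and overlap in the exon panel.

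Other repeats in introns and outside genes were summed beside B2_Mm2, first without ribosomal RNA repeats. Repeat windows in introns that were neither B2 nor ribosomal RNA summed to 389 ± 53.6 CPM in injured and 366 ± 16.9 CPM in naive libraries at 24 h, and to 547 ± 44.2 and 506 ± 82.3 CPM at 72 h (exact permutation p = 0.571 and 0.343). Those outside genes summed to 323 ± 17.0 and 317 ± 14.8 CPM at 24 h and to 355 ± 33.7 and 335 ± 23.8 CPM at 72 h (exact permutation p = 0.571 and 0.4). The ratios of injured to naive were thus 1.02 to 1.08, where those of B2_Mm2 in these places were 1.97 to 3.17. Windows annotated as ribosomal RNA repeats differed from both: they were at 6123 ± 3102 and 2779 ± 530 CPM at 24 h, with no overlap, and at 3164 ± 1098 and 3191 ± 595 CPM at 72 h. With them counted among the other repeats, the ratio at 24 h was 1.76 in introns and 2.36 outside genes (exact permutation p = 0.0286 and 0.0857). At 72 h it was 0.921 and 1.20 (exact permutation p = 0.429 and 0.571). The part of intron and intergenic RNA in general in the level of B2_Mm2 was not tested. Injured 24 h replicate 4, the library with the highest B2_Mm2 level of its group, was also the highest of its group in ribosomal RNA windows, with 10410 CPM. Whether the 2 measures are linked in that library was not tested.

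More windows had counts in injured than in naive libraries once depth was made equal. So that depth would not set the result, every library was reduced to the depth of the smallest and the percent of the 23435 windows expected to keep at least 1 count was taken. At 24 h that share was 4.96% to 8.09% across injured libraries and 3.15% to 4.37% across naive ones, and it was 7.74% to 10.6% and 5.33% to 7.49% at 72 h. Injured libraries lay above naive ones at each time, with means of 6.49% ± 1.49 against 3.78% ± 0.513 and 9.06% ± 1.22 against 6.32% ± 1.12 (exact permutation p = 0.0286 each, SD, n = 4). As counted, without bringing libraries to 1 depth, the shares were 6.79% against 4.12% and 9.66% against 7.09%, with overlap (exact permutation p = 0.0571 each). The exact p was also 0.0571 without any 1 of the naive 24 h libraries, and at 72 h without injured replicate 2 or 4 or naive replicate 1, 2 or 4. Naive libraries at 72 h also showed more windows than naive libraries at 24 h, with no overlap, so the share also differed between naive libraries of the 2 times. The shares of B2_Mm1a and B2_Mm1t windows were also higher in injured libraries at both times, with no overlap (10.1% against 6.44% and 7.60% against 4.81% at 24 h, 13.1% against 8.36% and 10.4% against 6.84% at 72 h, exact permutation p = 0.0286 each). At 24 h those of B3 and B3A were 7.55% and 6.05% and those of B1 3.14% and 2.47% in injured and naive libraries, with overlap (exact permutation p = 0.0571 and 0.114). At 72 h the shares of B3 and B3A windows (10.46% injured, 11.2% naive) and of B1 windows (4.62% and 4.76%) overlapped between the groups, with the lower mean in injured libraries (exact permutation p = 0.457 and 0.714).

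At the level of single copies, 84 windows (0.358% of members) had counts in all 4 injured libraries and in none of the 4 naive ones at 72 h, and 7 (0.0299%) had the reverse. Over all 205758 windows of the table the shares were 0.138% and 0.0714%. At 24 h the numbers were 43 (0.183%) and 2 (0.00853%), beside 0.0977% and 0.0126% of all windows. The gene table held 175447029 counts in the injured and 183463556 in the naive libraries at 72 h, and 153529866 and 185713909 at 24 h, so the injured side was not the deeper one. Windows with counts in all 8 libraries numbered 101 at 24 h and 165 at 72 h.

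The 10 highest windows held a minor part of the B2_Mm2 counts, but the counts were far from even over the 23435 windows. The 232 windows with enough counts for a test of their own, 0.99% of members, summed to 99.9 of 228 CPM in injured libraries at 24 h. At 72 h they summed to 167 of 372 CPM. The 10 highest windows of a library held 9.49% to 12.1% of its B2_Mm2 counts in the injured group at 24 h and 13.8% to 16.2% in the naive group, so the share was lower in every injured library (10.9% ± 1.18 against 14.8% ± 1.01, exact permutation p = 0.0286). At 72 h the shares were 10.8% to 12.4% and 10.97% to 14.97%, which overlap (11.6% ± 0.654 against 13.1% ± 2.12, exact permutation p = 0.286). At 24 h it took 218 ± 27.7 windows to hold 50% of the counts in injured libraries and 145 ± 16.2 in naive ones (exact permutation p = 0.0286). At 72 h it took 235 ± 12.7 and 248 ± 57.8 (exact permutation p = 0.6). The highest single window held 1.46% to 3.77% of a library's B2_Mm2 counts in the 24 h libraries and 1.96% to 3.11% in the 72 h ones.

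**Figure D3:**
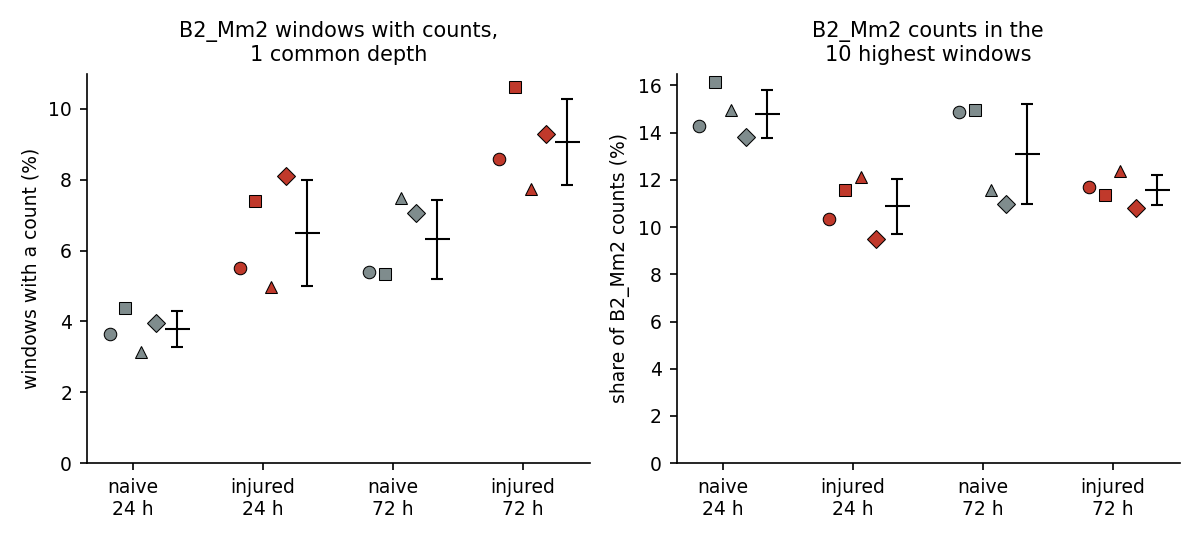
Left, percent of the 23435 B2_Mm2 windows expected to have a count when every library is reduced to 1 common depth; right, percent of a library's B2_Mm2 counts in its own 10 highest windows. Both y axes start at 0, points are libraries (circles, squares, triangles and diamonds for replicates 1 to 4) and bars give the mean and SD of 4. Injured libraries are above naive ones on the left at each time, and below them on the right at 24 h.

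Few windows had enough counts for a test of their own. In the fit over the whole window table, 13869 windows passed the filter on low counts, 232 of them B2_Mm2. Of these 232, 31 (13.36%) rose at 24 h and 0 fell, where 2.39% of all windows tested rose and 0.476% fell (edgeR's quasi-likelihood test, adjusted over all windows) and 3.92% of windows of any repeat family rose. At 72 h, 74 (31.9%) rose and 0 fell, where 4.28% rose and 1.9% fell over all windows and 8.05% rose over windows of any repeat family. The closest relatives were similar: 13.5% and 29.7% of B2_Mm1t windows and 5.56% and 23.1% of B2_Mm1a windows rose at 24 h and 72 h, and 0 fell. At an unadjusted p under 0.05, 89 B2_Mm2 windows were higher and 0 lower at 24 h, where 9.02% and 4.98% of all windows tested were, and 137 were higher and 2 lower at 72 h, beside 9.75% and 6.62%. DESeq2 called 50 higher and 0 lower at 24 h (3.68% and 1.08% of all windows) and 103 and 1 at 72 h (5.58% and 2.75%). Without injured 24 h replicate 4 the count at 24 h was 19, all among the 31, and without naive 72 h replicate 1 the count at 72 h was 48. Groups did not overlap, with injured higher, for 43 windows at 24 h (5.13% of all windows tested) and 121 at 72 h (8.74%). They did not overlap, with injured lower, for 0 at 24 h (2.47%) and 4 at 72 h (5.5%).

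These counts describe the windows that passed and are not a sample of all members, since a window could pass the filter through injured libraries alone. Only 67 of the 232 reached the filter's level in at least 4 of the 8 naive libraries. Of these 67, 1 rose at 24 h and 13 at 72 h, where 2.39% and 4.28% of all windows tested rose. At 24 h their share was thus not above that of all windows. Their median log2 fold changes were 0.32 and 1.00. The other 165, which include 30 and 61 of the calls, had medians of 1.72 and 2.82. Over the 232, the median log2 fold change was 1.31 at 24 h and 1.98 at 72 h, beside 0.03 and 0.01 over all windows tested; with windows at 0 in all naive libraries set to the bound that 3 counts over the group give, it was 1.27 and 1.98. The windows that did not pass the filter were, as a sum, also higher in injured libraries: 128 ± 54.4 against 69.5 ± 7.08 CPM at 24 h and 206 ± 33.8 against 94.7 ± 21.5 CPM at 72 h (exact permutation p = 0.0286 each). They made up 54.8% of the difference of 107 CPM at 24 h and 49.5% of that of 224 CPM at 72 h. The windows called singly made up 15.9% and 33.9%.

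Both times shared most of the calls made at 24 h. Of the 81 windows called at either time, 24 were called at both, 77.42% of those called at 24 h and 32.43% of those called at 72 h. Of the 232 windows, 186 were above 0 at both times, and the fold changes had a Pearson correlation of 0.66 across them, as a description of windows that share their libraries at each time. Both numbers partly follow from the filter, because 165 of the 232 windows did not reach its level in at least 4 of the 8 naive libraries. Fitted values of windows at 0 in all naive libraries, 19 at 24 h and 14 at 72 h, depend on the prior count of the fit. For the difference of responses 0 windows were called in either direction (0.108% and 0.0721% of all windows tested), with 23 larger and 4 smaller at 72 h at an unadjusted p under 0.05 (3.63% and 4.28%). DESeq2 called 0 in either direction, where it called 0.361% and 0.389% of all windows.

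**Figure D4:**
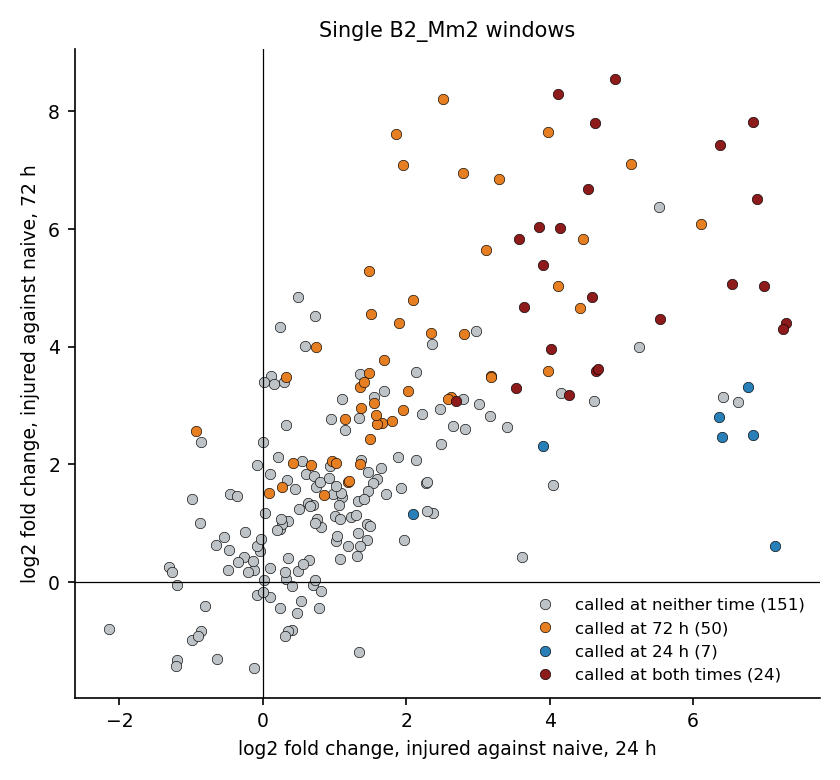
Log2 fold change of the 232 tested B2_Mm2 windows, injured against naive, at 24 h (x axis) and 72 h (y axis). Each point is a window, coloured by whether it was called at 24 h, at 72 h, at both times (24 windows) or at neither. Most points lie in the upper right, and every called window is above 0 at the time it was called. A window could pass the filter through injured libraries alone, so this pattern partly follows from the filter.

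The window with the highest level in injured libraries at 72 h lies in an intron of Mrpl37, which encodes a protein of the mitochondrial ribosome (chr4:107061563-107061586). It had 34, 97, 52 and 214 counts in the injured libraries at 24 h and 18, 2, 0 and 0 in the naive ones. At 72 h it had 290, 678, 318 and 445 counts in injured and 4, 1, 7 and 5 in naive libraries. Each injured library exceeded each naive one at both times. The log2 fold changes were 4.54 (SE 0.607, adjusted p = 1.83e-05) and 6.68 (SE 0.617, adjusted p = 1.74e-08, edgeR). Mrpl37 itself was at 21.3 and 21.2 CPM in injured and naive libraries at 24 h and at 20.7 and 22.2 CPM at 72 h, with a log2 fold change of 0.01 and -0.10 (adjusted p = 0.972 and 0.434).

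The other windows named for their rise at 24 h had few counts in naive libraries. They are the largest rises only among called windows with no overlap and at least 10 counts on average. Called windows that do not meet this rule had fitted log2 fold changes of up to 7.29. Of all called windows at 24 h, 12 had 0 counts in every naive library of that time. The window 2631 bp upstream of Slc9a8, a sodium/proton exchanger gene (chr2:167419058-167419081), had 17, 34, 31 and 47 counts in injured and 0, 3, 0 and 0 in naive libraries at 24 h, a ratio of 53.4, with a 95% counting interval of 17.8 to 262. At 72 h it had 39, 66, 47 and 71 against 3, 3, 2 and 2. Slc9a8 itself was at log2 fold changes of 0.04 and -0.11 (adjusted p = 0.826 and 0.358). In the Nckap5l intron window (chr15:99450432-99450455) the counts were 3, 19, 17 and 57 against 1, 0, 3 and 0 at 24 h, and 31, 68, 34 and 62 against 2, 3, 7 and 4 at 72 h. The log2 fold changes were 4.64 and 3.59 (adjusted p = 0.00156 and 0.00238). Nckap5l, whose product binds microtubules, was lower in injured libraries at 72 h (log2 fold change -0.51, adjusted p = 0.00241).

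An intron window of Phf21a, which encodes a histone-binding subunit of a demethylase complex (chr2:92161742-92161765), had 19, 18, 8 and 71 counts against 0, 0, 0 and 5 at 24 h and 17, 26, 26 and 27 against 0, 0, 2 and 1 at 72 h. Its log2 fold change at 24 h was 4.59 (adjusted p = 0.00709), and 3.72 (adjusted p = 0.0864) without injured replicate 4. The window 11998 bp downstream of Naif1 (chr2:32468951-32468974) had 18, 14, 27 and 34 counts against 0, 0, 0 and 7 at 24 h and 16, 53, 38 and 31 against 1, 0, 0 and 2 at 72 h. Neither Phf21a nor Naif1 passed the test at either time.

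The 6 windows with the largest fitted rises at 72 h had 0 counts in all 4 naive libraries at that time. For these the fold is a lower bound, the injured level over the level that 3 counts in the whole naive group would give. A window 139978 bp downstream of Rapgef2, which encodes an activator of Rap GTPases (chr3:78922515-78922538), had 39, 45, 42 and 61 counts in injured libraries, at least 66.5-fold higher (adjusted p = 2.85e-05). It was also among the rises named at 24 h, with 7, 11, 41 and 23 counts against 3, 0, 0 and 0. Rapgef2 fell at both times (log2 fold change -0.27 and -0.22, adjusted p = 0.000803 and 0.00286).

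The 2 other such windows outside genes lie near genes that fell at 72 h. One is 25807 bp upstream of Hs6st2, a heparan sulfate sulfotransferase gene (chrX:51707663-51707686), and had 6, 73, 42 and 40 counts, at least 57.3-fold higher (adjusted p = 0.000209). Hs6st2 had a log2 fold change of -0.78 (adjusted p = 7.92e-08). The other is 103022 bp upstream of Cadm1, a cell adhesion gene (chr9:47427128-47427151), and had 15, 51, 21 and 29 counts, at least 41.3-fold higher (adjusted p = 0.00026). It was also at 0 in all naive libraries at 24 h, with 11, 13, 8 and 18 counts in the injured ones. Cadm1 had a log2 fold change of -0.34 at 72 h (adjusted p = 4.73e-05).

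The remaining windows of this kind lie in introns. In Trim71, an RNA-binding ubiquitin ligase gene, the window (chr9:114523526-114523549) had 31, 66, 11 and 45 counts at 72 h, at least 54.4-fold higher (adjusted p = 0.000345), while Trim71 itself was barely detected, at 0.167 CPM in injured and 0.429 CPM in naive libraries. In Sult2b1, a sulfotransferase gene, the window (chr7:45780190-45780215) had 24, 61, 9 and 21 counts, at least 40.9-fold higher (adjusted p = 0.000436), and the gene was at 0.789 and 0.476 CPM. In Shc3, which encodes a neuronal adaptor of receptor tyrosine kinases, the window (chr13:51538120-51538143) had 32, 28, 18 and 20 counts, at least 34.9-fold higher (adjusted p = 0.00144), and the gene fell (log2 fold change -0.60, adjusted p = 0.0297).

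Among the windows with the highest mean level, some passed the test and others did not. The highest lies 74974 bp upstream of Ipo5, an importin gene (chr14:120836227-120836250), and was at 9.10, 8.04, 8.25 and 7.55 CPM in injured and 1.72, 3.52, 3.25 and 3.31 CPM in naive libraries at 72 h, with no overlap and a log2 difference of 1.48 (SE 0.255, adjusted p = 0.000316). At 24 h it was at 0.86 (adjusted p = 0.0698) with overlap. Ipo5 also rose, by 0.41 and 0.76 (adjusted p = 2.43e-05 and 1.29e-09). The Emc7 3' UTR window shown above (chr2:112471467-112471490), in the gene of a subunit of the endoplasmic reticulum membrane protein complex, was at 2.06 to 4.27 CPM (injured) and 2.98 to 4.77 CPM (naive) at 24 h and at 3.48 to 6.18 and 2.87 to 3.65 CPM at 72 h. Its groups overlapped at both times (log2 fold change -0.26 and 0.43, adjusted p = 0.691 and 0.349).

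The Hspa4l 3' UTR window shown above (chr3:40794035-40794058), in a gene of the Hsp110 chaperone family, was at 2.40 and 2.23 CPM at 24 h and at 1.55 and 1.84 CPM at 72 h in injured and naive libraries (adjusted p = 0.94 and 0.787). A window 53447 bp upstream of Atp2b1, a calcium pump gene (chr10:98860936-98860959), was at 2.35 and 2.54 CPM and at 3.67 and 3.20 CPM (adjusted p = 0.897 and 0.78).

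Few exon windows could be tested, and those that rose are named here after their values were seen. Of 20 tested, 1 rose at 24 h and 2 at 72 h, where 2.39% and 4.28% of all windows tested rose. The share of exon windows that rose was thus not below that of all windows, and the difference was not tested. The Hip1 window shown above (chr5:135452350-135452373), in an exon of a non-coding transcript of the gene of a clathrin adaptor, had 8, 20, 10 and 33 counts in injured and 1, 4, 0 and 0 in naive libraries at 24 h. At 72 h it had 28, 40, 26 and 52 against 1, 4, 4 and 0. Its log2 fold changes were 4.02 and 3.96 (adjusted p = 0.00851 and 0.00314), while Hip1 was at -0.52 and -0.75. The Lockd window shown above (chr6:134954897-134954920) lies in a long non-coding RNA next to Cdkn1b and rose at 72 h, with 11, 60, 30 and 51 counts against 4, 2, 5 and 12 (log2 fold change 2.78, adjusted p = 0.0172), and the RNA itself was at 1.73.

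Most host genes of rising intron windows were not called, as was the case for most of all genes tested. Of 120 tested windows in introns, 12 rose at 24 h and 43 at 72 h, and of 92 outside genes 18 and 29 rose. Over all windows tested, 2.39% rose at 24 h and 4.28% at 72 h. The 43 intron windows lay in 43 genes, of which 39 were tested: 2 rose, 9 fell and 28 were not called, where 14.4% of all 19151 genes tested rose and 13.5% fell at 72 h. The median log2 fold change of the 39 genes was -0.10. Over all 104 tested intron windows with a tested host, called or not, the window exceeded its gene by more than 1 on the log2 scale in 76 at 72 h and in 63 at 24 h. Because a window could pass the filter through injured libraries alone, these numbers partly follow from the filter and describe only the windows that passed. At 24 h the 10 tested hosts of the 12 rising windows were all uncalled, where 10.7% of genes rose and 8.31% fell. Across all 104 intron windows with a tested host, the Pearson correlation of window and gene fold change at 72 h was -0.12. For rising windows outside genes at 72 h the nearest protein-coding gene lay a median of 16812 bp away, and of 27 tested 3 rose, 9 fell and 15 were not called. A fit chosen after the data were seen left out all windows in or nearest to genes that rose. In it the summed level had log2 fold changes of 0.93 (adjusted p = 0.0303) and 1.40 (adjusted p = 0.000195, edgeR). The part of host or neighbouring genes in the level of B2_Mm2 was not tested. The strand setting of the counting is not given in the sources used here, so transcripts of the element and of the host gene's intron cannot be told apart.

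**Figure D5:**
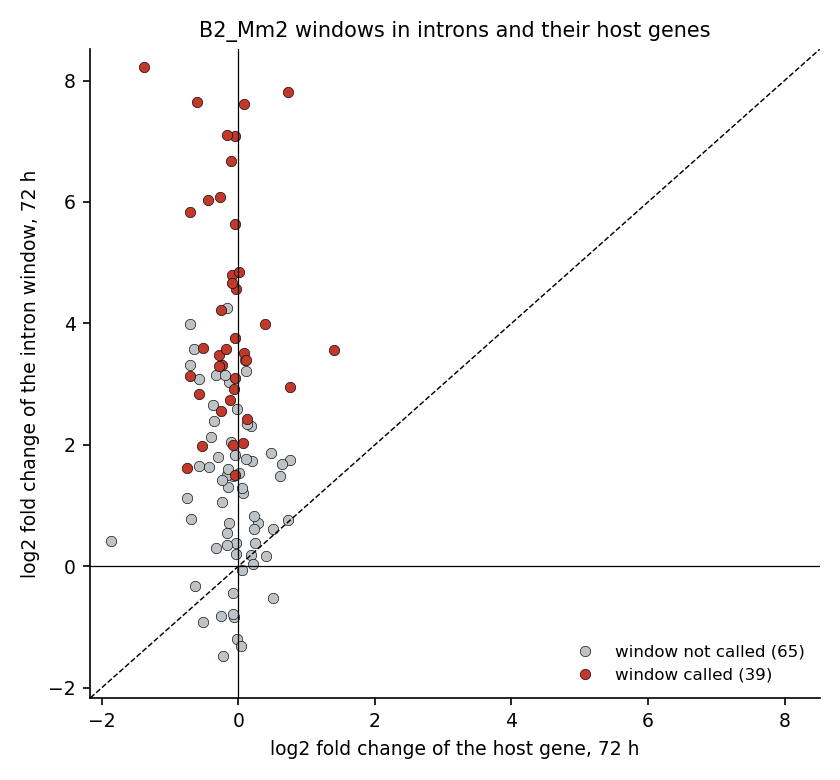
Log2 fold change at 72 h of B2_Mm2 windows in introns (y axis) and of their host genes (x axis), for the 104 tested windows whose host was also tested; both axes have the same range. Red points are the 39 windows called at 72 h, and the dashed line marks equal change. Called windows lie above the line, with host genes on both sides of 0.

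Genes of the machinery that acts on B2 elements were read beside the windows. Of 24 genes of the RNA polymerase III machinery, the enzyme and its initiation factors, 5 (20.8%) rose and 0 fell at 24 h, where 10.7% of all genes tested rose and 8.31% fell, and 7 (29.2%) rose and 1 fell at 72 h, beside 14.4% and 13.5%, with medians of -0.004 and 0.12 on the log2 scale beside -0.01 over all genes at each time. Polr3d, a subunit of the polymerase, rose at both times, by 0.38 and 0.38 (adjusted p = 0.0038 and 0.00192). Bdp1, part of the initiation factor TFIIIB, rose by 0.35 at 24 h (adjusted p = 0.000428), and Crcp, another subunit, by 0.30 at 72 h (adjusted p = 0.00115). Of 17 genes of SINE silencing and processing, 1 (5.88%) rose and 0 fell at 24 h and 1 rose and 1 fell at 72 h, shares below those of all genes. Dnmt1, the maintenance DNA methyltransferase, rose by 0.51 and 0.24 (adjusted p = 0.000109 and 0.0376), and Hells, a chromatin remodeller needed for DNA methylation of repeats, fell by 0.67 at 72 h (adjusted p = 0.000213).

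Markers of other cell types also differed at 72 h, and in bulk RNA of dissociated ganglia fewer cells of a type cannot be told apart from less RNA per cell. Sensory neuron markers summed to 14780 to 18170 CPM over all libraries, so the neurons the labels name were present. Of these 8 genes, 0 rose and 3 (37.5%) fell at 24 h and 1 (12.5%) rose and 3 (37.5%) fell at 72 h. Beside this list and those that follow, 10.7% of all genes tested rose and 8.31% fell at 24 h. At 72 h 14.4% of all genes rose and 13.5% fell. Of 7 macrophage markers, which all passed the count filter, 0 changed at 24 h, with sums of 14.3 to 22.9 CPM (injured) and 13.4 to 22.1 CPM (naive). At 72 h 5 rose and 0 fell, with sums of 45.2 to 57.6 and 12.48 to 24.6 CPM. Of 6 neutrophil markers, 0 changed at 24 h and all 6 fell at 72 h (38.9 to 147 against 104 to 407 CPM). In the lists for erythroid cells, fibroblasts, Schwann cells, satellite glia, lymphocytes, mural cells and endothelium at most 1 marker rose and at most 2 fell at either time. The part of these cells in the level of B2_Mm2 was not tested.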

How the data were processed

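RNA of 16 libraries, 4 in each of 4 groups, was analysed. The authors deposited whole read counts per gene and per genomic window, not scaled. Tools listed in the submitters' processing notes are STAR, HTSeq and bcl2fastq 2.17, with the builds mm10 and GRCm38. The strand setting, annotation release, the rule for reads with several matches and how windows were chosen are not given in the sources used here. Members, gene lists and tests were chosen with earlier results of these data known.

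Levels were scaled by gene totals and TMM factors of edgeR 4.0.16 in R 4.3.3. Windows, subfamily totals and genes were each fitted over the whole table with filterByExpr (minimum count 10, total 15), all 16 libraries, group as the only term, quasi-likelihood tests and Benjamini-Hochberg adjustment at 0.05; the scripts were tested on simulated data. SE is the absolute log2 fold change over the square root of F. Shares and sums were compared with exact 2-sided permutation tests. Windows were placed with GENCODE M21; no sequence was read from chromosome 18. Counting intervals are exact binomial at 95%, bounds use 3 counts, and neither covers more than counting error, because without molecular identifiers a read is not a molecule.

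Named windows, none on chromosome 18, are per time the 6 largest rises and 3 largest falls (none qualified) among called windows with no overlap and 10 or more counts on average, plus the 6 highest in level; of lists, the 3 members with the smallest p. Hip1 and Lockd fall outside the rule. Some items that meet the rule are not reported here. Same-numbered injured and naive libraries had correlated deviations of 0.05 to 0.1 over 19151 genes, and the labels do not say which libraries share a mouse, so tests were unpaired. The lowest chi-square per degree of freedom between libraries of a group was 9.56, so none was a duplicate. Because separate animals are counted only by the series text, p-values measure the spread between these libraries. DESeq2 1.42.0 was an alternative.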

Additional observations from a re-analysis of the deposited data

Results flagged for a closer look

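In 13 of 88 groups of 4 libraries checked, 1 library stood apart from the other 3 by Dixon's criterion for 4 values. Chance gives about 1 in 20 for values with a normal spread. Several of the 13 were windows at 0 in the other 3 libraries, where any read sets the flag and that rate does not hold. The summed level in introns was 199.8 CPM in injured 24 h replicate 4, where the next library was at 102 CPM, and 49.1 CPM in naive 24 h replicate 3, where the next was at 62.8 CPM. The summed level in exons was lowest in the same naive library, at 16.03 CPM beside 16.9 CPM.

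The Emc7 3' UTR window was at 6.18 CPM in injured 72 h replicate 4, beside 3.85 CPM in the next library, and the window upstream of Ipo5 was at 1.72 CPM in naive 72 h replicate 1, beside 3.25 CPM. In 8 named windows 1 naive 24 h library held all or nearly all of the counts of its group. In replicate 1 these were the Mrpl37 intron window (0.380 CPM) and the windows near Rapgef2 and Hs6st2 (0.0634 CPM each). Replicate 2 held those of the Slc9a8 and Sult2b1 windows (0.0530 CPM each), replicate 3 those of the Shc3 window (0.0722 CPM), and replicate 4 those of the Phf21a (0.118 CPM) and Naif1 (0.165 CPM) windows. Each of these rests on a few reads, and no cause was tested.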

How the results depend on the processing

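The rise of the summed level kept its direction under every alternative run, and at 72 h also its call. At 24 h it was 0.89 (adjusted p = 0.0797) with windows of 24 bp only. Leaving out 1 library gave 0.56 to 1.05 at 24 h, past the threshold in 3 of 8 cases, 1.23 to 1.41 at 72 h and 0.28 to 0.76 for the difference. The count of rising windows was 19 to 42 at 24 h and 48 to 69 at 72 h with 1 library left out; DESeq2 called 50 at 24 h and 1 falling window at 72 h. Fitting only windows with a repeat family gave 1 falling window at 72 h, and no filter on low counts gave 1 window with a larger response at 72 h. For the share of windows with counts, the difference was 2.18 to 3.22 percentage points at 24 h and 2.22 to 3.18 at 72 h with 1 library left out. It was 2.67 and 2.57 as counted (exact p = 0.0571) and 0.600 at 24 h for at least 5 counts (exact p = 0.486). The share of the 10 highest windows differed by -4.35 to -3.47 at 24 h and -2.25 to -0.918 at 72 h with 1 library left out, and that of the 50 highest by 0.0128 at 72 h.

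With the replicate number as a block, the summed level rose by 0.85 (adjusted p = 0.0249) and 1.33 (adjusted p = 0.000126), and 27 and 71 windows rose. The shares with counts differed by 2.71 and 2.74 and that of the 10 highest windows at 24 h by -3.93, where sign changes within 4 pairs cannot give a p below 0.125. Of 8 injured libraries, 7 deviated most like the naive library of their own number, a hint from the data and not from the design. Of 345 values of named windows under alternatives, 336 kept direction and call, and no called window changed sign. Most windows had no counts, so a copy without counts is not shown to be silent.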
